A study of Mus musculus with 6 samples.

Results

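The 66 probe sets described here carry a single gene symbol in the platform annotation that is either a Hox cluster gene or Meis1, Meis2, Meis3, Pbx2, Pbx3, Pbx4 or Pknox1. They read 40 genes, 33 of them Hox genes, out of 45037 probe sets for 18193 genes on the array. All were kept, whatever their level. The 3 arrays of the withdrawal group measured cells 48 h after doxycycline was removed, and the 3 arrays of the doxycycline group measured cells held under 1 µg/ml of the drug. Both groups came from the same single clone, C6, which the labels describe as haematopoietic progenitor cells of Rosa26rtTA C57BL/6J background. Its vector, pRRL.TET.Evi1.IRES.EGFP, makes a codon-optimized mouse Evi1, a zinc finger transcription factor, together with EGFP while doxycycline is present. In the design text the clone depends on Evi1, so all cells measured here had grown under its influence, and no cells without the vector were analysed here. Cells of both groups grew in medium with mSCF (50 ng/ml), mIL-3 (20 ng/ml), hFlt-3 ligand (50 ng/ml) and hIL-11 (50 ng/ml).

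Hox genes encode homeodomain transcription factors that lie side by side in the clusters HoxA, HoxB, HoxC and HoxD, in an order that matches where they act along the body axis. In blood, genes of the HoxA cluster and of HoxB are known to be active in stem and early progenitor cells and to be shut down as the cells mature, and Hoxa9 together with its cofactor Meis1 can transform mouse myeloid progenitors. The Meis, Pbx and Pknox proteins belong to another homeodomain class, called TALE. They bind DNA beside Hox proteins, and Meis and Pknox proteins also pair with Pbx proteins.

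The 6 arrays had medians from 5.22 to 5.27 on the log2 scale, and no pair was identical. The labels do not say whether replicates were separate cultures, so p-values cover only how far these arrays scatter, and that scatter may be technical. Of 10 markers of blood progenitors, among them Kit, Myb and Mpo, all 10 lay above the background bound defined next, and 1, Cd34, fell after withdrawal. Of the markers of other cells, 1 of 7 stromal, 3 of 6 endothelial, 4 of 5 T cell, 0 of 4 B cell and 2 of 4 red cell genes lay above it. Of those markers, the B cell gene Cd79b, whose level was below the bound, fell (-0.57; limma adjusted p = 0.0320). All 6 macrophage genes lay above the bound, and 3 of them, Cd68, Csf1r and C1qc, fell. Mean levels over the macrophage list were 8.79 to 8.83 on the withdrawal arrays and 9.10 to 9.15 on the doxycycline arrays. The part of that shift in the values below was not tested. In bulk RNA, fewer cells of a type and less RNA per cell cannot be told apart. The 3 probe sets for the endogenous Evi1 gene, Mecom, lay between 2.63 and 3.66 in both groups and may not read a codon-optimized transcript, so they do not check the labels.

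The values hold no call for presence of a transcript, so a bound was taken from 124 probe sets of sensory receptor and keratin-associated genes, which are not known to be made in myeloid cells. Their 95th percentile over the mean of the 6 arrays was 5.33 on the log2 scale and their highest member lay at 6.95. Probe sets differ in how strongly they bind their target, so this bound is a guide and levels of different probe sets are not ranked. Above it lay 16 of the 66 probe sets (24.2%), against 48.9% of all probe sets. The T cell genes Cd4 and Cd8a also lay above it, with means of 6.03 and 6.11 in the withdrawal group and of 5.93 and 6.11 in the doxycycline group, so a level just over the bound does not by itself show a transcript. Above the highest of the 124 lay 5 of the 66, all of them for Pbx2 or Pknox1, and 0 of the 48 Hox probe sets.

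The promoters of 5 of the genes are shown because Hoxa2 and Hoxb1 hold the letters to which these proteins bind, Hoxd3 and Pbx4 had the smallest p-values of the group, and Pbx2 is one of the genes read well above background. Each is the 250 bases before the annotated start in the RefSeq table of GRCm38.p6, 5′ to 3′ on the strand of the gene, with motif matches in capitals. The windows are chr6:52164832-52165081 on the minus strand for Hoxa2, chr11:96365508-96365757 on the plus strand for Hoxb1, chr2:74711743-74711992 on the plus strand for Hoxd3, chr8:69832374-69832623 on the plus strand for Pbx4 and chr17:34592009-34592258 on the plus strand for Pbx2.
Hoxa2: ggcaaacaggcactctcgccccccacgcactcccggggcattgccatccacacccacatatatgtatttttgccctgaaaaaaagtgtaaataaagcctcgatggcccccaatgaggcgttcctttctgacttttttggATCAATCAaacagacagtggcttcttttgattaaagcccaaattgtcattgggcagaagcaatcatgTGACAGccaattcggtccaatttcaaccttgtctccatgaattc
Hoxb1: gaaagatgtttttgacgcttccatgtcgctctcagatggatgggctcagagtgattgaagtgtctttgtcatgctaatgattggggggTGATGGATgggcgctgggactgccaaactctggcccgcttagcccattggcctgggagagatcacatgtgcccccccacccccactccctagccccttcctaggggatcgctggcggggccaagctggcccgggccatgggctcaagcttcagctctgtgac
Hoxd3: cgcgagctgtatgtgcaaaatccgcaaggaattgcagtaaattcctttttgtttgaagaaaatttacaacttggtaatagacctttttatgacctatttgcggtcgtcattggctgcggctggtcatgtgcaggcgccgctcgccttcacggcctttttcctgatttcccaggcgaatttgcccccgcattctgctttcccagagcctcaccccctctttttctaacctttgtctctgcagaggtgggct
Pbx4: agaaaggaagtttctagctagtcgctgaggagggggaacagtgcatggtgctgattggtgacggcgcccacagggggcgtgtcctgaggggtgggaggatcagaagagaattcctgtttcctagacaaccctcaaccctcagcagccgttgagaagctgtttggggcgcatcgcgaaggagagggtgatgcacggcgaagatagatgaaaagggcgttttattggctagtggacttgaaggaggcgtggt
Pbx2: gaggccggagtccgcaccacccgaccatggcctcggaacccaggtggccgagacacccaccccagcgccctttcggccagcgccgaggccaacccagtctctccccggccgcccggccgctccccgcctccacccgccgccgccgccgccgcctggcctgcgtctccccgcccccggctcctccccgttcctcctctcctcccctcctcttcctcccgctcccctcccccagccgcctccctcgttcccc

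Promoters were found for 24 of the 40 genes, 26 windows in all, and 3 motifs were searched on both strands, with no overlap between their matches in the printed windows. TGATNNAT, bound by Pbx together with Hox proteins, was present in 3 of the 26 windows (11.5%), against 7.68% of all 32851. In Hoxb1 it covered the bases from 162 to 155 before the start; in the mouse embryo Hoxb1 is known to keep itself active in the hindbrain through such sites close to its own start. In Hoxa2, a hindbrain and facial patterning gene, the match lay on the other strand, from 111 to 104 bases before the start. TGACAG, bound by Meis and Pknox proteins, was present in 2 windows (7.69%) against 15.9% of all, once in Hoxa2 from 44 to 39 bases before the start. AGATAA, the core letters shared by GATA factors and the first zinc finger domain of Evi1, was in 0 of the 26 and in 9.99% of all, which says only that these letters are not in these windows. The median GC content was 59.2% in the 26 windows and 52.4% in all. Pbx2 had 77.6%. A match is a description of letters and not a bound site, and the levels of Hoxa2 and Hoxb1 lay far below the background bound, at means of 2.87 and 3.01 in the withdrawal group and of 2.76 and 3.04 in the doxycycline group.

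**Figure D1:**
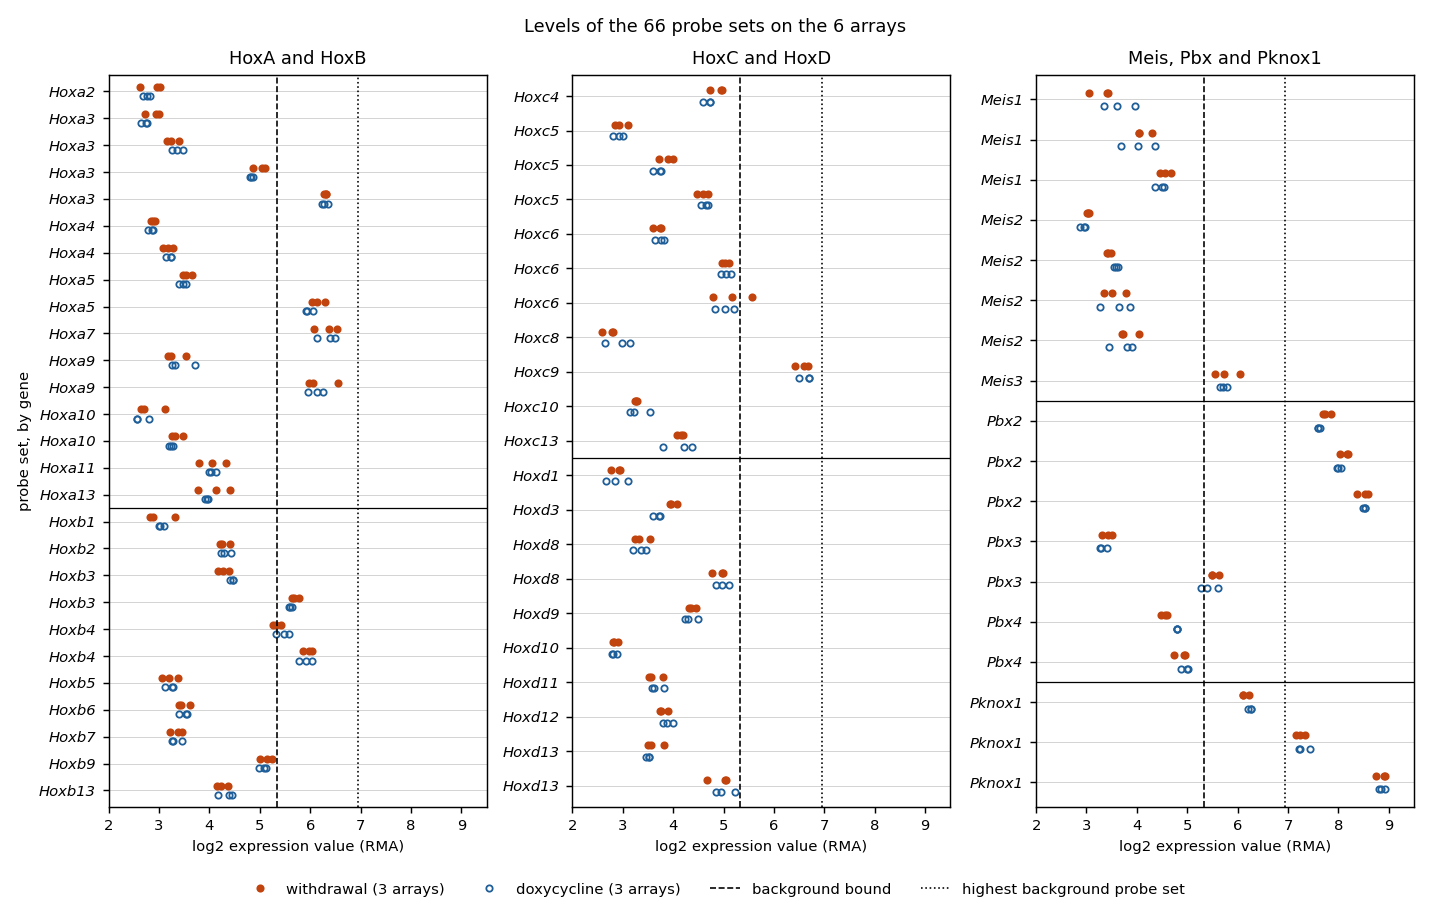
Log2 expression value (horizontal) of each of the 66 probe sets, labelled by gene and grouped by cluster (rows), with 3 withdrawal arrays as filled points above 3 doxycycline arrays as open points. The dashed line is the background bound of 5.33 and the dotted line the highest background probe set at 6.95, which only probe sets for Pbx2 and Pknox1 exceed.

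None of the 66 probe sets passed in the comparison of withdrawal with doxycycline (limma, Benjamini-Hochberg adjusted p from 0.109 upwards, threshold 0.05), while 1.97% of all probe sets did. The background share was 3.56% among probe sets above the bound, where 16 of the 66 lay, and 0.447% among those at or below it, where 50 lay, so counts of 0 are close to what these shares give for so few probe sets. At an unadjusted p below 0.05 there were 2 of 66 (3.03%), both at or below the bound, against 14.3% of all probe sets and 7.58% of those at or below the bound. The withdrawal and doxycycline arrays did not overlap for 7 of the 66 (10.6%), 4 of them higher and 3 lower after withdrawal, against 20.8% of all probe sets. For this count no share was taken among probe sets at or below the bound, so the lower share is not read as a trait of these genes. Differences, always withdrawal minus doxycycline on the log2 scale, ran from -0.34 to 0.30 with a median of 0.01. The median over all probe sets was also 0.01, and the median size without sign was 0.09 both in the 66 and in all.

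**Figure D2:**
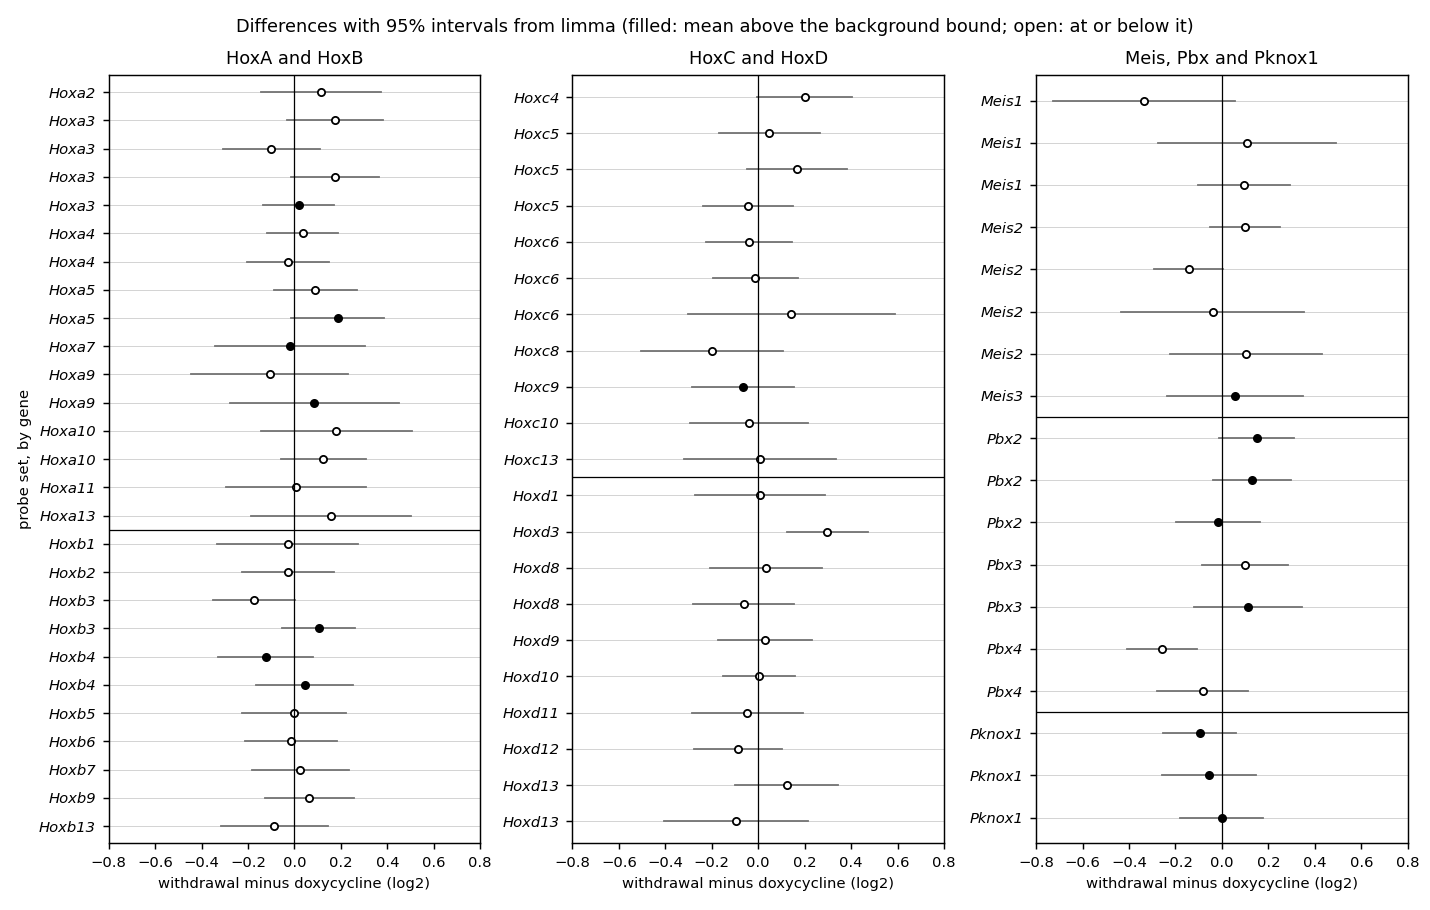
Difference, withdrawal minus doxycycline on the log2 scale (horizontal), of each probe set with its 95% interval from limma (bars); filled points have a mean above the background bound. Only the intervals of Hoxd3 and the dimmer Pbx4 probe set leave out 0, and neither passed after adjustment.

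In the HoxA cluster, which holds Hoxa9 and the other Hox genes most often tied to myeloid leukaemia, 4 of 16 probe sets lay above the bound, for Hoxa3, Hoxa5, Hoxa7 and Hoxa9. Hoxa9 on its brighter probe set (1421579_at) had values of 5.98, 6.06 and 6.55 in withdrawal replicates 1, 2 and 3 and of 6.13, 5.96 and 6.24 in the doxycycline replicates. The groups overlapped, and the highest value was that of withdrawal replicate 3. The difference was 0.09 ± 0.16 (SE, n = 3 per group; limma adjusted p = 0.868), with a 95% interval from -0.28 to 0.45, and it was -0.09 without withdrawal replicate 3. The other Hoxa9 probe set lay at 3.32 in the withdrawal group and 3.43 in the doxycycline group, both below the bound.

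Hoxa7, which lies beside Hoxa9, had values of 6.07, 6.37 and 6.54 after withdrawal and of 6.40, 6.14 and 6.49 under doxycycline. The groups overlapped fully, and the difference was -0.02 ± 0.14 (limma adjusted p = 0.972). Hoxa5 had the largest difference of the cluster on a probe set that may cross-hybridise, with values of 6.13, 6.05 and 6.29 after withdrawal and of 5.93, 5.92 and 6.06 under doxycycline. Withdrawal replicate 2 lay just under the highest doxycycline array, and the difference of 0.19 ± 0.09 did not pass (limma adjusted p = 0.388). Hoxa3 was read by 4 probe sets whose means ran from 2.80 to 6.29, and the brightest had 6.27, 6.32 and 6.32 after withdrawal and 6.28, 6.23 and 6.35 under doxycycline. The groups overlapped there, at a difference of 0.02 ± 0.07. Hoxa2, Hoxa4, Hoxa10, Hoxa11 and Hoxa13 stayed at or below the bound on every probe set, with means over the 6 arrays from 2.73 to 4.05. In the cluster 12 of the 16 differences had a positive sign, against 36 of the 66. The 16 probe sets read only 9 genes, and 0 of them had an unadjusted p below 0.05 in limma. No share of positive signs over all probe sets was taken, so this count is not read as a rise of the cluster.

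In the HoxB cluster, Hoxb3 and Hoxb4 were the genes above the bound, on 3 of 11 probe sets; Hoxb4 is known for expanding blood stem cells when overexpressed. Its brighter probe set had 5.86, 5.97 and 6.04 after withdrawal and 5.92, 5.78 and 6.04 under doxycycline, and its other had 5.26, 5.43 and 5.33 after withdrawal and 5.58, 5.48 and 5.33 under doxycycline. Both overlapped between groups, with differences of opposite sign, 0.04 ± 0.09 and -0.12 ± 0.09 (limma adjusted p = 0.885 and 0.599). Hoxb3, its neighbour in the cluster, had 5.69, 5.65 and 5.79 after withdrawal and 5.64, 5.58 and 5.59 under doxycycline on its brighter probe set. Every withdrawal array lay above every doxycycline array there, at a difference of 0.10 ± 0.07 (limma adjusted p = 0.561). The dimmer Hoxb3 probe set went the other way without overlap, with 4.16, 4.38 and 4.28 after withdrawal and 4.47, 4.47 and 4.40 under doxycycline, a difference of -0.17 ± 0.08 (limma adjusted p = 0.363). Hoxb1, Hoxb2, Hoxb5, Hoxb6, Hoxb7, Hoxb9 and Hoxb13 lay at or below the bound, with means over the 6 arrays from 3.02 to 5.10.

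The HoxC and HoxD clusters, best known from the trunk, limbs and genital tract, had 1 of 11 and 0 of 10 probe sets above the bound. Hoxc9 was the single gene above the bound in HoxC, with 6.67, 6.60 and 6.42 after withdrawal and 6.70, 6.50 and 6.70 under doxycycline. The groups overlapped, at a difference of -0.07 ± 0.09 (limma adjusted p = 0.824). The largest differences of that cluster were those of Hoxc4 and Hoxc8, both below the bound, at 0.20 ± 0.09 and -0.20 ± 0.13 (limma adjusted p = 0.363 and 0.568). Hoxc4 had 4.74, 4.96 and 4.95 after withdrawal and 4.73, 4.74 and 4.58 under doxycycline. The other HoxC probe sets had means from 2.93 to 5.10 over the 6 arrays. In HoxD 0 of 10 probe sets lay above the bound, and their means ran from 2.84 to 4.96. Hoxd3 (1437664_at) nevertheless had the smallest p of all Hox probe sets, with 3.93, 4.08 and 3.95 after withdrawal and 3.60, 3.73 and 3.74 under doxycycline. All withdrawal arrays were higher, and the difference of 0.30 ± 0.08 did not pass (limma adjusted p = 0.113). Its mean lay at the 26.0th percentile of all probe sets, and a pair of further probe sets annotated to both Hoxd3 and Hoxd4 were not used.

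Of the Meis genes, Meis1, whose product is the known partner of Hoxa9 in leukaemia, and Meis2 lay near the floor. All 3 Meis1 probe sets were below the bound, and their differences had both signs. The dimmest (1450992_a_at) had 3.06, 3.43 and 3.40 after withdrawal and 3.60, 3.34 and 3.96 under doxycycline, the largest difference of the 66 at -0.34 ± 0.17, with overlapping groups (limma adjusted p = 0.433). The brightest had 4.45, 4.56 and 4.68 after withdrawal and 4.37, 4.53 and 4.51 under doxycycline, a difference of 0.10 ± 0.08 (limma adjusted p = 0.689). All 4 Meis2 probe sets lay below the bound as well, with 2 differences of each sign. Their means over the 6 arrays ran from 2.98 to 3.77. Of these, 2 did not overlap between groups and pointed in opposite directions, at 0.10 ± 0.06 and -0.14 ± 0.06 (limma adjusted p = 0.558 and 0.375). Meis3 lay above the bound, with 5.55, 5.73 and 6.04 after withdrawal and 5.79, 5.64 and 5.71 under doxycycline, and its difference of 0.06 ± 0.13 became -0.08 without withdrawal replicate 3.

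Pbx2 and Pknox1, cofactors made in many tissues, were the members read well above background, and neither changed by an amount that passed. The brightest Pbx2 probe set (1418893_at) had 8.59, 8.53 and 8.37 after withdrawal and 8.52, 8.53 and 8.49 under doxycycline, a difference of -0.02 ± 0.08 with a 95% interval from -0.20 to 0.16. The next (1418894_s_at) had 8.19, 8.18 and 8.03 after withdrawal and 7.97, 8.04 and 8.00 under doxycycline, a difference of 0.13 ± 0.07 (limma adjusted p = 0.482). On the dimmest (1449261_at), with 7.85, 7.69 and 7.73 after withdrawal and 7.64, 7.59 and 7.59 under doxycycline, all withdrawal arrays were higher, by 0.15 ± 0.07 (limma adjusted p = 0.390). The sign of the brightest was not settled, since its difference was 0.05 without withdrawal replicate 3. Pknox1, also called Prep1, had 8.90, 8.93 and 8.75 after withdrawal and 8.85, 8.93 and 8.80 under doxycycline on its brightest probe set (1437470_at). The groups overlapped, at a difference of -0.002 ± 0.08 and a 95% interval from -0.18 to 0.18. Its other probe sets, with means over the 6 arrays of 7.27 and 6.19, differed by -0.05 ± 0.09 and -0.10 ± 0.07. The one at 6.19 lay above the bound but under the highest background probe set, at 6.95. Over the 6 probe sets of both genes the interval reached at most 0.31 from 0, so larger differences lay outside the 95% interval of each.

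Pbx4, a relative of Pbx2 known mainly from testis, and Pbx3, a further known partner of Hoxa9 in leukaemia, were close to or under the bound. Pbx4 had the smallest p of the 66 on its dimmer probe set (1449916_at), with 4.59, 4.47 and 4.55 after withdrawal and 4.80, 4.80 and 4.79 under doxycycline. All withdrawal arrays were lower, and the difference of -0.26 ± 0.06 did not pass (limma adjusted p = 0.109). The doxycycline arrays there differed by an SD of only 0.005, and the other Pbx4 probe set overlapped between groups at -0.08 ± 0.08 (limma adjusted p = 0.733). Pbx3 had 5.63, 5.49 and 5.49 after withdrawal and 5.39, 5.27 and 5.61 under doxycycline on its brighter probe set, a difference of 0.11 ± 0.10 (limma adjusted p = 0.690).

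**Figure D3:**
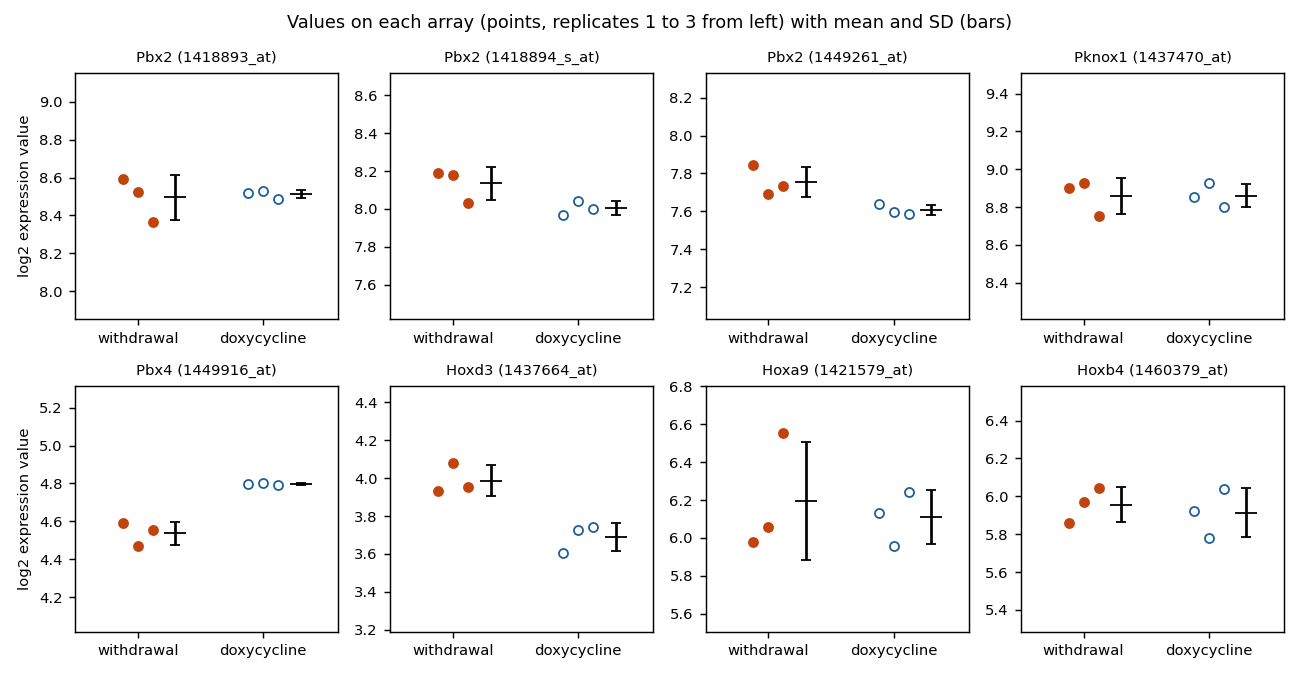
Log2 expression value (vertical, 1.3 units in every panel) on each withdrawal array (filled) and each doxycycline array (open) for 8 probe sets, with mean and SD as bars. Withdrawal and doxycycline points separate for Pbx4, Hoxd3 and 1 of the 3 Pbx2 probe sets, and overlap for Pknox1, Hoxa9 and Hoxb4.

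Probe sets of the same gene often gave differences of opposite sign. Of 17 genes with several probe sets, 5 had a single sign over their probe sets with all arrays in the fit, namely Hoxa5, Hoxa10, Pbx3, Pbx4 and Pknox1. No share was taken over all genes with several probe sets, so this count is not read as a trait of these genes. Withdrawal replicate 3 held the highest of the 6 values for 20 of the 66 probe sets (30.3%), against 22.4% of all probe sets and 28.5% of those at or below the bound. This array also had the highest median, 5.27, and the narrowest interquartile range, 3.71, and without it the sign of the difference turned for 15 of the 66. Above the bound these were 5 probe sets, for Hoxa9, Hoxc9, Meis3, Pbx2 and Pknox1, the last at 0.05 on its brightest probe set. Turned signs were not counted here over all probe sets or without another array. The 15 are therefore not read as particular to this array or to these genes. The part of this array in the differences was not tested beyond leaving it out.

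No gene passed on the lists of Hox cluster regulators and of other homeobox genes. For each list on its own, a count of 0 is close to what the background shares give for so few genes. Some genes on the trithorax, Polycomb and other homeobox lists passed under other settings, given at the end. The trithorax list holds trithorax and MLL complex genes, known activators of Hox genes, and partners of these complexes. Of its 23 measured genes 0 passed, against a background of 1.2% of genes higher and 1.57% lower, and the median difference was 0.04. Psip1, which tethers the MLL complex to chromatin, differed by -0.27 ± 0.08 (limma adjusted p = 0.204), and Kmt2a, the MLL gene itself, by 0.17 ± 0.11. Of 31 Polycomb group genes, known repressors of the clusters, 0 passed, with a median of -0.01. Pcgf6 (-0.28 ± 0.06), Cbx6 (-0.29 ± 0.07), Phf19 (0.31 ± 0.08) and Phc1 (-0.35 ± 0.09) had the smallest adjusted p of that list in limma, from 0.084 to 0.131. Of 9 Cdx and retinoid receptor genes, which act on the clusters in the embryo, 0 passed, with a median of 0.03. Only 4 of these 9 lay above the background bound, and the Cdx genes, Rarb and Rxrg did not. Of 18 other homeobox genes known in blood cells 0 passed, with a median of -0.03, and 13 of the 18 lay above the bound. The smallest adjusted p there was 0.0745 in limma for Zeb2, a zinc finger and homeobox repressor, at -0.41 ± 0.09.

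Of the genes linked to Hoxa9 and Meis1 in mouse myeloid progenitors, Sox4 fell and Gfi1 rose. Of 25 measured, 2 rose and 8 fell in limma after adjustment, and 15 did not pass, against 1.2% of all genes higher and 1.57% lower, with a median of -0.03 against 0.01 over all genes. Many are known targets of other factors too, several were among the changed genes in earlier results of these data, and the list was written with those known, so its count is not independent evidence. Sox4, a stem and progenitor transcription factor, had 8.76, 8.64 and 8.59 after withdrawal and 9.96, 9.88 and 9.84 under doxycycline, and fell on this, its brightest probe set (-1.23 ± 0.07; limma adjusted p = 4.54e-04). Dnmt3b, a de novo DNA methyltransferase, fell to 7.27, 7.35 and 7.24 after withdrawal, against 7.97, 8.06 and 7.90 under doxycycline (-0.69 ± 0.07; limma adjusted p = 0.00491). Msi2, an RNA-binding protein of stem cells, fell to 8.04, 7.87 and 7.94, against 8.40, 8.47 and 8.49 under doxycycline (-0.50 ± 0.07; limma adjusted p = 0.0181). The cell survival gene Bcl2 (-0.40), the progenitor genes Lmo2 (-0.42) and Cd34 (-0.51), Mycn (-0.43) and the angiopoietin gene Angpt1 (-0.59) fell too. Gfi1, a repressor known to oppose Hoxa9, had 11.42, 11.44 and 11.37 after withdrawal and 10.87, 10.86 and 10.86 under doxycycline, and rose by 0.54 ± 0.06 (limma adjusted p = 0.00639). The chemokine gene Ccl3 rose by 0.46 ± 0.06.

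With 1 array left out, 1 or 2 of these genes rose and 2 to 5 fell, and without both withdrawal replicate 3 and doxycycline replicate 1 none rose and 1 fell. The calls of Bcl2 and Mycn were lost without any 1 of the 6 arrays. Those of Lmo2 and Ccl3 were lost without any single array but withdrawal replicate 3, and those of Cd34 and Msi2 without any but withdrawal replicate 1. That of Angpt1 was lost without doxycycline replicate 1, doxycycline replicate 3 or withdrawal replicate 2. Those of Sox4, Dnmt3b and Gfi1 were kept without any 1 array. When the probe sets of a gene were averaged, Bcl2 (-0.18), Mycn (-0.16), Msi2 (-0.22) and Angpt1 (-0.33) did not pass, and Sox4 passed at -0.38 (limma adjusted p = 0.0235), a smaller difference than those of Dnmt3b (-0.66), Cd34 (-0.51) and Lmo2 (-0.42).

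The list named for binding beside Hoxa9 in myeloid cells holds transcription factors, coactivators and other proteins. It held 1 rise and no fall among 11 measured, against 1.2% of all genes higher and 1.57% lower. Cebpa, the granulocyte factor on which Hoxa9 depends in mouse leukaemia models, reached 9.97, 9.98 and 9.93 after withdrawal, against 9.27, 9.26 and 9.12 under doxycycline, a rise of 0.74 ± 0.07 (limma adjusted p = 0.00307). Its call was kept without any 1 array and lost when both arrays named above were left out (limma adjusted p = 0.0652). Cebpb differed by 0.30 ± 0.08 (limma adjusted p = 0.113) and Spi1, the gene of PU.1, by 0.27 ± 0.09 (limma adjusted p = 0.245).

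**Figure D4:**
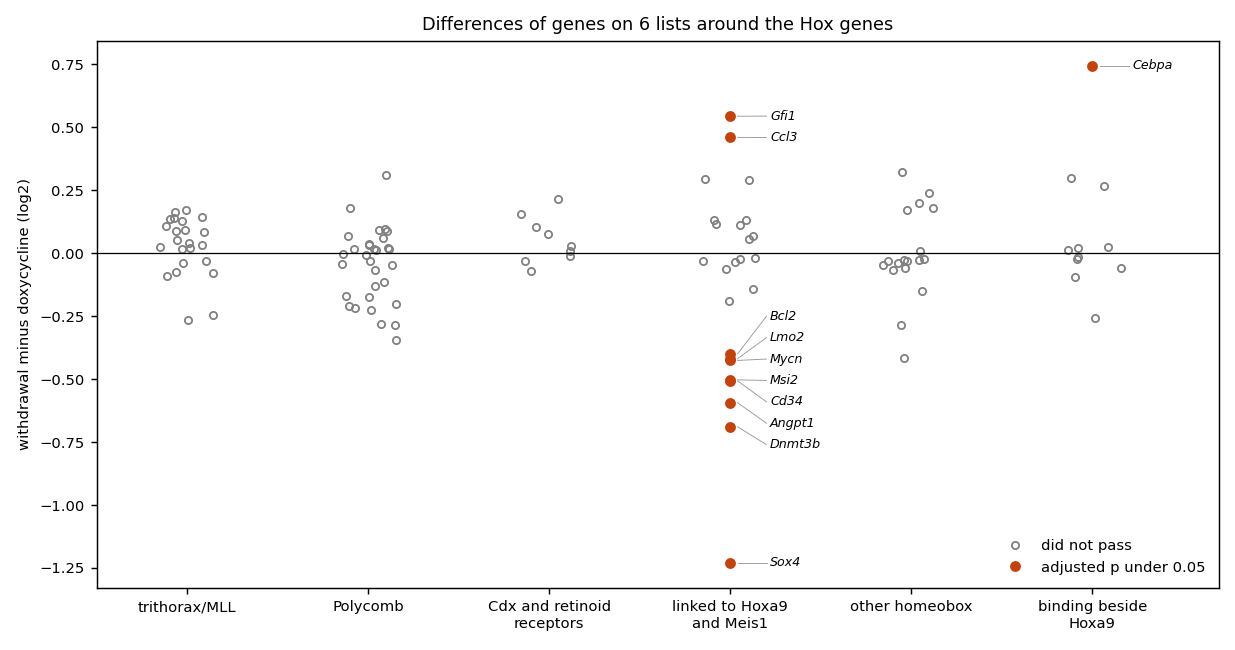
Difference, withdrawal minus doxycycline on the log2 scale (vertical), of every measured gene on 6 lists (columns), each read from its brightest probe set; filled and named genes passed in limma. Passed genes appear only among those linked to Hoxa9 and Meis1 (2 higher, 8 lower) and on the list named for binding beside Hoxa9 (Cebpa).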

How the data were processed

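Total RNA of 6 samples was amplified as cDNA, labelled with biotin and hybridised to 1 mouse array each, per the labels' protocols. The deposited values are log2 expression values per probe set, made with RMA per the submitters' processing notes; the RMA version, the probe definitions and any filtering are not given there. RMA forces arrays onto a shared distribution and compresses differences near the floor. Probe sets were named from the platform annotation, and all 40 gene IDs were found in the RefSeq table.

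The 64 control probe sets were left out. Groups were compared with lmFit and eBayes (limma 3.58.1, R 4.3.3) on all 45037 other probe sets without covariates, with two-sided p-values adjusted by Benjamini-Hochberg and a threshold of 0.05. For list genes the brightest probe set, by mean over the arrays, was used. Every member could be named; from other lists those that passed and up to 4 with the smallest p, and also Kmt2a and the T cell genes, picked after their values were seen, as was the choice of promoters. The members and lists were chosen with earlier results of these data known.

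On simulated data with changed probe sets at all levels, 86 of 100 changed by 1 and 24 of 100 changed by 0.5 were recovered, with 0 false calls. Its values were independent normal draws with the spread seen for each probe set, and no change smaller than 0.5 was drawn. These rates therefore do not give the recovery of differences as small as those of the members. The main fit did not pair the arrays by replicate number, and whether the numbers pair them was not settled. Alternatives were a left-out array, a replicate block, a filter, centring, quantile normalization, eBayes options, array weights, an interquartile range covariate, and other probe set rules. Plots used Python 3.11.15 and matplotlib 3.10.9.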

Additional observations from a re-analysis of the deposited data

How the results depend on the processing

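Across 13 alternatives run on all 66 probe sets, and a filter that kept 16 of them, none passed, except that with array weights 1 was higher (Hoxd3, adjusted p = 0.0468) and 1 lower (Pbx4, adjusted p = 0.0436). Over their alternatives the adjusted p reached 0.334 for Hoxd3 and 0.336 for Pbx4. Only 28 of the 66 kept the sign of their difference throughout. The number above the background bound was 18 with the 90th percentile, 16 with the median of all probe sets, 15 when all 3 arrays of a group had to exceed it and 14 when all 6 had to.

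With the replicate number as a block, 0 of the genes linked to Hoxa9 and Meis1 rose and 3 fell. The deviations of same-numbered arrays correlated at -0.15, 0.21 and 0.02 over all probe sets. Over the 22518 probe sets above the median level they correlated at -0.30, 0.46 and -0.03. Over all probe sets 1 of 6 arrays correlated best with its own number. With 3 arrays a group these values do not settle whether the numbers pair the arrays, and the main fit did not pair them. Leaving out 1 array gave 1 to 2 rises and 2 to 5 falls among the genes linked to Hoxa9 and Meis1. Without both withdrawal replicate 3 and doxycycline replicate 1, 0 rose and 1 fell there. On the list for binding beside Hoxa9, 0 rose in that fit. With averaged probe sets 4 genes linked to Hoxa9 and Meis1 fell, and 1 gene of the trithorax list fell. With array weights 2 Polycomb genes and 1 other homeobox gene fell, and 2 on the list for binding beside Hoxa9 rose. With the filter on dim probe sets 1 Polycomb gene rose and 2 fell. There 2 other homeobox genes fell, and 2 on the list for binding beside Hoxa9 rose. With trend and robust options 1 gene of the trithorax list rose, and 3 Polycomb and 2 other homeobox genes fell. On the list for binding beside Hoxa9, 2 rose with these options. With the interquartile range as a covariate, and with quantile normalization, 1 other homeobox gene fell. The cause of these changes was not tested. Some of the alternatives use fewer arrays or probe sets. With 3 arrays a group, SEs of the 66 ran from 0.06 to 0.19 on the log2 scale. Their median was 0.089 for the 50 probe sets at or below the background bound and 0.086 for the 16 above it. Over all probe sets these medians were 0.101 and 0.080. The part of signal near the floor in the SEs was not tested.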
